A study of Mus musculus with 16 samples.

Results

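Single-cell RNA sequencing of the mouse thoracic aorta yielded a small set of cells that carried transcripts of heart muscle. A cell was selected on its own counts: it held unique molecular identifiers (UMIs, each standing for 1 captured RNA molecule) of at least 2 of the genes Myh6, Myl3 and Tnnt2, and at least 4 UMIs of the 3 genes together. Of 50858 cells that passed the limits on genes, UMIs and mitochondrial RNA, 106 met this rule, which is 0.208% (95% exact binomial interval 0.171% to 0.252%, counting error only). They came from 15 of the 16 libraries, with 0 to 12 cells per library. Of the 106 cells, 22 (20.8%) also held at least 5 UMIs of Myh11, the smooth muscle myosin heavy chain. The cells used for comparison were 8889 of 8950 vascular smooth muscle cells (VSMCs), defined by at least 5 Myh11 UMIs and more Myh11 than Dcn, that held no UMI of Myh6 or Myl3.

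Each library was made from the aorta of a 129S6/SvEv mouse, cut from the root at the sinus of Valsalva to the left subclavian branch, after perfusion through the left ventricle. All mice carried a tamoxifen-inducible Cre under the Myh11 promoter and received tamoxifen at 6 weeks of age. Smad3+/+ mice were compared with mice homozygous for a floxed Smad3 allele (Smad3SmKO), collected 10 weeks (2 and 2 libraries, 16 weeks of age) or 18 weeks (5 and 7 libraries, 24 weeks of age) after tamoxifen. Tissue was digested for 30 min in batches 1 to 3 and for 60 min in batches 4 to 6, where batch 4 held every 10 week library and batch 5 only libraries labelled Smad3SmKO. Some mice carried a Cre-activated EGFP-L10a tracer. Libraries held 12539539 to 52843031 UMIs and 631 to 6497 kept cells. The GFP counts went against the tracer label in 4 libraries: Smad3+/+ 18 weeks replicates 4 and 5, labelled with the tracer, had 0 GFP UMIs in kept cells, and Smad3SmKO 10 weeks replicates 1 and 2, labelled without it, had 246 and 165. Pooled Smad3 RNA in the compared VSMCs at 18 weeks was 7.68 CPM (UMIs of the gene per 1e6 UMIs) in Smad3+/+ and 8.91 CPM in Smad3SmKO libraries, but 3' tags need not cover the deleted part of the gene, so these counts are no check of the genotype. Genotypes below are those of the labels. Of 59572 distinct barcode sequences, 5157 (8.66%) occurred in more than 1 library.

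Heart muscle cells contract through sarcomeres, in which thick filaments of cardiac myosin pull on thin filaments of actin, tropomyosin and the troponin complex each time calcium is released from internal stores. Atrial and ventricular muscle use different myosin light chains, and the root of the aorta, included in this dissection, lies against the muscle of both. Smooth muscle of the aorta contracts through other myosin and actin genes and has no troponin-gated sarcomere. In the mouse genome (mm10, GENCODE vM21), Myh6, the alpha myosin heavy chain, lies on chromosome 14 at 54941921 to 54966927 (minus strand). Myl3, the ventricular essential light chain, lies on chromosome 9 at 110741861 to 110769798 (plus strand). Tnnt2, the cardiac troponin T that ties the troponin complex to tropomyosin, lies on chromosome 1 at 135836354 to 135852260 (plus strand).

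The 106 cells were not of 1 kind, and the number of heart muscle UMIs per cell differed widely among them. After the counts had been seen they were divided by fixed numbers of UMIs, which gives ranges and not cell types. The heart-rich cells were the 35 cells with at least 100 UMIs of the 3 genes. Of the other cells, 21 held at least 5 Myh11 UMIs (Myh11 cells), 30 held at least 5 UMIs of Dcn, the fibroblast proteoglycan decorin (Dcn cells), and 20 held neither (remaining cells). The heart-rich cells held 110 to 954 UMIs of the 3 genes with a median of 331, which was a median of 2.67% of all their UMIs. The medians were 14 UMIs in the Myh11 cells, 6 in the Dcn cells and 7 in the remaining cells. Few cells lay near the dividing line, with 3 heart-rich cells and 2 remaining cells between 80 and 120 UMIs.

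**Figure D1:**
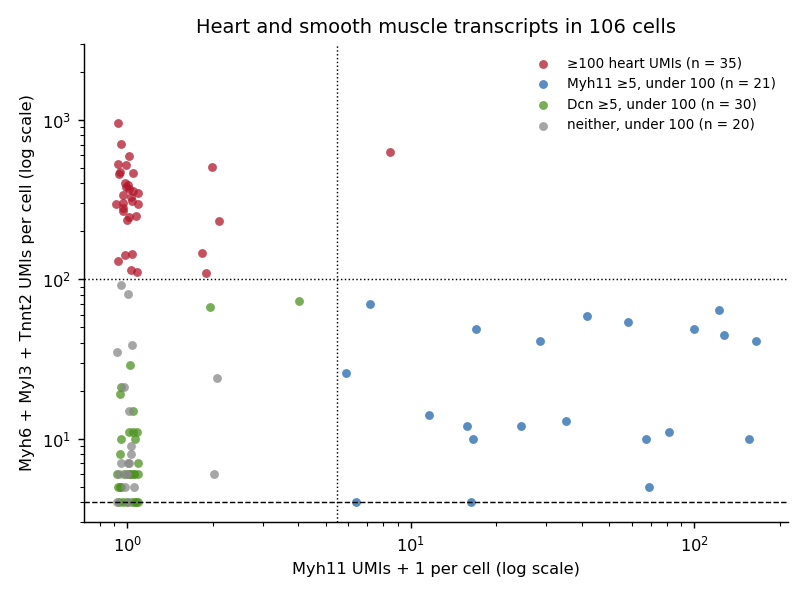
UMIs of Myh6, Myl3 and Tnnt2 together (vertical, log scale) against Myh11 UMIs plus 1 (horizontal, log scale, spread slightly sideways) in each of the 106 cells, with dotted lines at the dividing counts and a dashed line at the rule's lowest sum. The 35 heart-rich cells lie at low Myh11 counts, with 1 exception at 7 Myh11 UMIs, and the 21 Myh11 cells reach at most 70 heart UMIs.

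Heart-rich cells held many sarcomere genes beside those of the rule. All 11 other listed thick filament genes and all 17 other thin filament and Z disc genes had at least 1 UMI in them, against 11260 of 31055 genes in all (36.3%), and some of them were found in 2 of the 35 cells only. Because the 3 genes of the rule chose the cells, levels of these genes are a description and no test was run. Levels below are CPM over a library's heart-rich cells, from 3' tags that do not scale with transcript length, so they are compared between cells and not between genes. Over the 10 libraries with such cells, Myh6 ranged from 3171 to 7625 CPM (median 5917), Myl3 from 2352 to 12520 CPM (median 8446) and Tnnt2 from 7958 to 19507 CPM (median 14825). Tnnt2 in the compared VSMCs of these libraries ranged from 84.8 to 477 CPM.

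Genes that the rule did not use followed the same cells. Tnni3, the cardiac inhibitory troponin, had a UMI in 35 of 35 heart-rich cells, with 2599 to 7588 CPM over libraries against 0 to 1.44 CPM in the VSMCs. Tnnc1, the calcium-binding troponin, also had UMIs in all 35 cells and ranged from 2874 to 7497 CPM against 0 to 9.43 CPM. The groups of libraries did not overlap for either gene, and the share of all genes without overlap is not given here. Ttn, the giant spring protein titin, ranged from 1219 to 4636 CPM and was found in 34 cells. Actc1, the cardiac alpha actin, ranged from 1168 to 7998 CPM against 0 to 23.8 CPM in the VSMCs, with UMIs in 34 cells. Tpm1, an alpha tropomyosin that smooth muscle also uses, ranged from 6412 to 21537 CPM against 2105 to 5269 CPM.

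Calcium handling and energy genes were as broadly present. Pln, the phospholamban that restrains the calcium pump, had UMIs in all 35 heart-rich cells, at 1203 to 5928 CPM against 23.7 to 781 CPM in the VSMCs. Atp2a2, the pump itself, ranged from 953 to 3607 CPM against 255 to 412 CPM. Trdn, a triadin of the calcium release complex, had UMIs in 34 cells and Ryr2, the release channel, in 15. Among genes of energy supply, Cox6a2, a muscle subunit of cytochrome oxidase, was found in 35 cells at 1861 to 8207 CPM, and reached 0.316 CPM at most in the VSMCs. Fabp3, the heart fatty acid-binding protein, ranged from 833 to 5436 CPM against 18.7 to 60.5 CPM, and Slc25a4, the ATP carrier of muscle mitochondria, from 2826 to 7861 CPM against 839 to 1344 CPM. Ldhb, the heart form of lactate dehydrogenase, had UMIs in all 35 cells. Cpt1b was listed but had 0 UMIs in all 106 cells.

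Smooth muscle genes were lower in the same cells than in the VSMCs. Acta2, the smooth muscle actin, had UMIs in all 35 heart-rich cells, at 1202 to 10145 CPM over libraries against 18728 to 35810 CPM in the VSMCs. Tagln, an actin-binding protein of smooth muscle, ranged from 83.4 to 4678 CPM against 16612 to 30945 CPM. Myh11 was found in 5 of 35 cells and reached 116 CPM at most, while the VSMCs were at 1968 CPM or more. The ranges over libraries did not overlap for these 3 genes, and for Myh11 the definition of the VSMCs sets this in part. How many of all genes do not overlap is not given here. The pooled levels in the heart-rich cells were 4954 CPM of Acta2 and 2141 CPM of Tagln. Barcodes with 2000 UMIs or fewer were at 5763 and 4412 CPM. Whether expression in the heart-rich cells or RNA free in the droplets gave their Acta2 and Tagln counts was not tested. The 8 endothelial markers summed to 0 UMIs in every heart-rich cell, the leukocyte markers to 0 or 1, and the 8 fibroblast markers to 0 to 257 with a median of 2. Mitochondrial RNA was high, with 2.33% to 24.9% of UMIs and a median of 12.1%, against a median of 4.72% in the Myh11 cells, and 6 heart-rich cells lay at 20% or more, close to the limit of 25%.

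**Figure D2:**
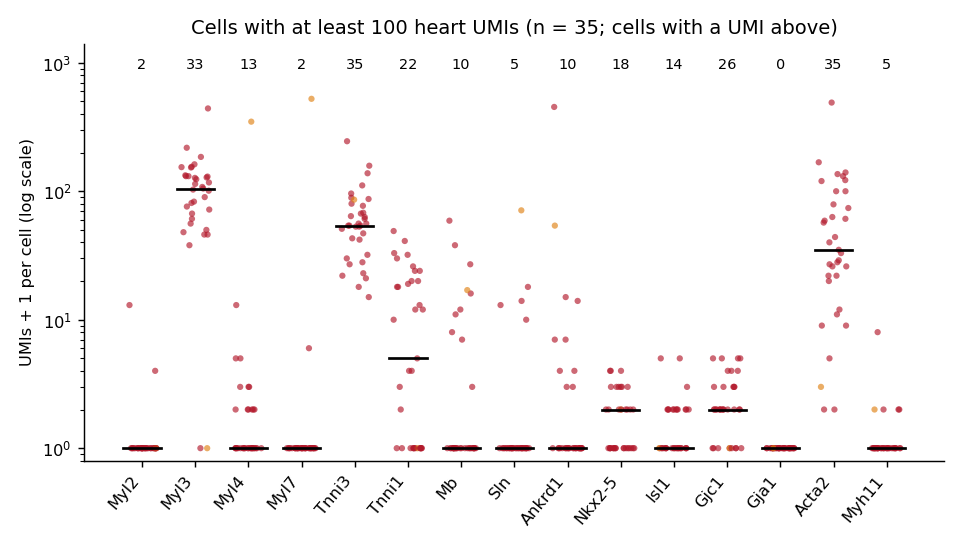
UMIs plus 1 of 15 genes (vertical, log scale) in each of the 35 heart-rich cells, with the median as a bar and the number of cells with at least 1 UMI at the top. The orange points are the cell with 523 Myl7 UMIs. Myl3 and Tnni3 are high in most cells, whereas Myl2, Myl7 and Gja1 have UMIs in 2, 2 and 0 cells.

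The light chains of the ventricle and the atrium were unevenly present in the heart-rich cells. Myl3 had UMIs in 33 of the 35 heart-rich cells with a median of 104 per cell. Myl2, the regulatory light chain of working ventricular muscle, had UMIs in only 2 cells, 12 in one and 3 in the other. Myl7, the atrial regulatory light chain, also had UMIs in 2 cells, and Nppa, the atrial natriuretic peptide, in 1 cell. That cell came from Smad3+/+ 10 weeks replicate 2 and held 523 UMIs of Myl7, 347 of Myl4, 70 of Sln and 23 of Nppa, with 0 of Myl3. Myl4, the atrial essential light chain, was found in 13 heart-rich cells, and 347 of its 379 UMIs lay in that 1 cell. Bmp10, a growth factor of atrial muscle, had 0 UMIs in all 106 cells.

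Channel and gap junction genes varied among the heart-rich cells. Gja1, which encodes connexin 43, had 0 UMIs in the 35 cells, whose summed depth puts 3 counts at 6.55 CPM, while the compared VSMCs of the 10 libraries were at 28.5 to 139 CPM. Gjc1, which encodes connexin 45, had UMIs in 26 of the 35 cells. Hcn4, a pacemaker channel, had UMIs in 2 cells. Kcnq1, a potassium channel subunit, was found in 10 cells and Kcnd2 in 7. Of 12 listed genes of this group, 9 (75%) had UMIs in the heart-rich cells, against 36.3% of all genes.

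Among transcription factors of the heart, Gata6 had UMIs in 34 heart-rich cells, Hand2 in 33, Mef2a in 31 and Tbx20 in 23. Nkx2-5, a core cardiac regulator, was found in 18 cells and ranged over libraries from 0 to 138 CPM with a median of 72.5, against 1.12 to 4.31 CPM in the VSMCs. Isl1, a regulator of the second heart field that builds the outflow tract, was found in 14 cells at 0 to 89.6 CPM against 0 to 5.66 CPM, and the groups overlapped for both genes. Hand1 had 0 UMIs in all 106 cells. Gata6, Hand2 and Mef2a are also transcribed by the VSMCs and fibroblasts, where their pooled levels were 74.2 CPM or more. Pooled Tbx20 was 159 CPM in the heart-rich cells, 87.7 CPM in the fibroblasts and 19.9 CPM in the VSMCs.

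Some genes split the heart-rich cells into cells with and cells without them. Mb, the oxygen-binding myoglobin, had 2 to 58 UMIs in 10 cells of 8 libraries and 0 in the other 25. The Mb cells also held Ckmt2, a mitochondrial creatine kinase, in 8 of 10 and Ankrd1, a stretch-responsive Z disc protein, in 8 of 10, whereas each was found in 2 of the 25 cells without Mb. Sln, the sarcolipin of atrial muscle, was found in 5 of 10 and in 0 of 25. Nkx2-5 was found in 9 of 10 and in 9 of 25, and Isl1 in 2 of 10 and in 12 of 25. The Mb cells held a median of 13857 UMIs against 11779, with a minimum of 10241 against 5138. Their heart UMIs had a median of 463 against 299, and their mitochondrial share a median of 15.3% against 12.1%, and the part of depth in the split was not tested. Tnni1, the slow skeletal and fetal cardiac troponin I, was found in 22 of the 35 cells, in 7 of the 10 with Mb and in 15 of the 25 without. Mb and these partners were chosen after their values were seen, so the split is a description. At 18 weeks Mb was found in 3 of 18 heart-rich Smad3+/+ cells and in 6 of 15 Smad3SmKO cells. Tnni1 was found in 14 of 18 and in 7 of 15. These cells came from 4 Smad3+/+ and 5 Smad3SmKO libraries, with up to 8 and 5 cells from 1 library. Cells are not replicates of a genotype, and these counts were not tested between labels.

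A pair of heart-rich cells stood out by fibroblast RNA. The cell with the most Tnnt2, 614 UMIs, came from Smad3+/+ 18 weeks replicate 5 and held 20 Myh6 and 0 Myl3 UMIs, together with 204 UMIs of Dcn, 47 of Lum and 7 of Myh11. The other, from Smad3+/+ 18 weeks replicate 2, held 81 Dcn UMIs and 112 heart UMIs. Scrublet, a doublet caller, placed 0 of the 35 heart-rich cells among the highest scores of their libraries, against 2 of the 21 Myh11 cells, 5 of the 30 Dcn cells and 0 of the 20 remaining cells. The same scores marked 3.13% of all kept cells and 6.60% of the 106 cells. Scores rest on doublets simulated from the cells of the same library, where heart-rich cells were few. A doublet that holds a heart-rich cell can therefore hardly score high. Whether this pair of cells were doublets was not tested.

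The Myh11 cells resembled VSMCs in several contractile genes. Over the 8 libraries with such cells, Acta2 ranged from 19354 to 41217 CPM against 21011 to 35858 CPM in the other VSMCs, and Tagln from 20410 to 38328 CPM against 21600 to 30972 CPM. The ranges overlapped for both, as they did for Myh11 itself. Tnnt2 had a median of 11 UMIs per cell and ranged from 579 to 3538 CPM against 104 to 257 CPM in VSMCs that did not meet the rule, a difference that the rule itself sets. Tnnt2 gave 90.9% of the heart UMIs of these cells, Myh6 7.96% and Myl3 1.16%. Myh6 had a median of 1 UMI per cell and at most 11, and Myl3 was found in 2 of 21 cells. Tnni3 was found in 2 and Tnnc1 in 5 of the 21 cells. Des, the muscle desmin filament, which the rule did not use, ranged over libraries from 0 to 3302 CPM (median 1288) against 251 to 572 CPM (median 453) in the other VSMCs, and was higher in 7 of 8 libraries. The summed pericyte markers reached 386 UMIs in 1 cell of this group.

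**Figure D3:**
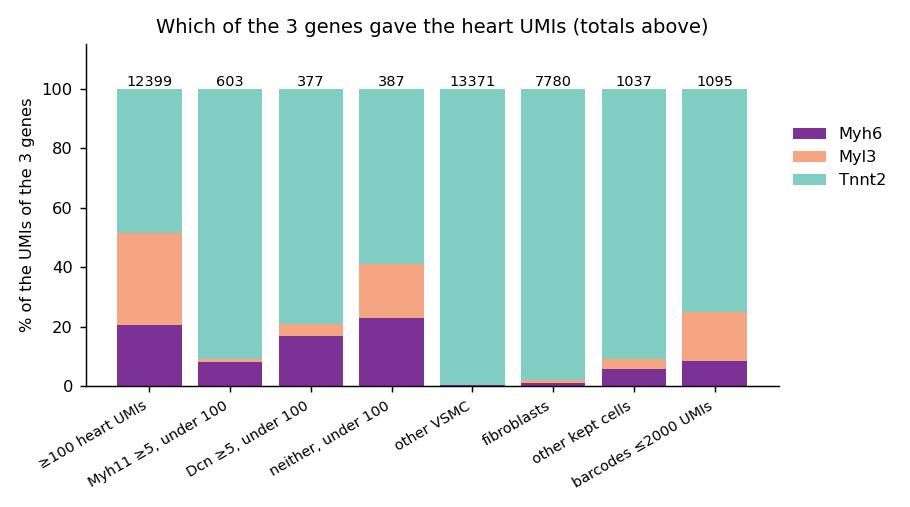
Share of the UMIs of the 3 genes that came from Myh6, Myl3 and Tnnt2 (vertical, percent) in each kind of cell, with the number of UMIs above each bar. Tnnt2 gives 48.7% in the heart-rich cells, 90.9% in the Myh11 cells and 99.5% in the VSMCs that did not meet the rule.

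Tnnt2 RNA was also present in VSMCs that did not meet the rule. In VSMCs outside the rule it gave 99.5% of 13371 heart UMIs, at 39.0 to 477 CPM over the 16 libraries, and it was higher than in the fibroblasts (cells with at least 5 Dcn UMIs and more Dcn than Myh11) of the same library in 15 of 16. Myh6 reached 5.65 CPM and Myl3 0.907 CPM at most in those VSMCs. The rule removes cells with 2 of the genes and 4 UMIs from these groups, so the shares of the 3 genes in them are set in part by the selection. Barcodes with 2000 UMIs or fewer, had a Tnnt2 share of 75.2%, with Myl3 at 0 to 95.2 CPM over libraries and a median of 10.1. RNA free in the droplets and more than 1 cell in a droplet were not tested as sources of the low counts.

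The Dcn cells carried fibroblast RNA and low counts of atrial genes. Most also held heart muscle genes outside the rule, with UMIs of Tnnc1 in 22 of 30 cells (201 CPM against 1.97 CPM in fibroblasts), of Actc1 in 21 (369 CPM against 1.35 CPM) and of Tnni3 in 19 (141 CPM against 1.12 CPM). They held a pooled 10626 CPM of Dcn, against 12686 CPM in the fibroblasts outside the rule, and 3364 CPM of the collagen gene Col3a1 against 3384 CPM. Their heart UMIs numbered 4 to 73, with fewer than 20 in 26 of 30 cells. Myl7 had UMIs in 20 of the 30 Dcn cells and Nppa in 14, while Myl3 was found in 8 and Myl2 in 3. The sum of Myl4, Myl7, Sln and Nppa reached 5 UMIs in 19 of the 30 Dcn cells. It did so in 6 of the 20 remaining cells, 6 of the 35 heart-rich cells and 1 of the 21 Myh11 cells. Pooled Nppa was 170 CPM in the Dcn cells and 589 CPM in the remaining cells. There 4 cells held Nppa, and 1 of them held 52 of its 83 UMIs. The pooled Myl7 level was 634 CPM in the Dcn cells, against a median of 1.19 CPM and a maximum of 10.8 CPM over libraries in the fibroblasts. In the low-UMI barcodes Myl7 ranged from 0 to 88.3 CPM.

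The 20 remaining cells were mixed. Tnni3 and Tnnc1 had UMIs in 16 of the 20 each and Actc1 in 14. Of these, 12 held at least 5 UMIs of the endothelial markers, such as Cdh5 and Pecam1 of endothelial junctions, and 4 at least 5 UMIs of the leukocyte markers, such as Lyz2. Of the 12 endothelial-marker cells, 8 held Myl2 and 9 held Myl3, but their atrial sum was 0 in 9. All 12 had 21 heart UMIs or fewer. Of the 4 cells with neither set of markers, 2 held 81 and 92 heart UMIs among 3105 and 2919 UMIs in all, and the other two held 24 and 35 with mitochondrial shares of 18.7% and 18.2%. Cd36, a fatty acid transporter of capillary endothelium and heart, was at 1697 CPM in the remaining cells and at 175 CPM in the heart-rich cells. Markers of Schwann and mesothelial cells summed to at most 2 UMIs in any of the 106 cells, and those of skeletal muscle to at most 9. Cd3e and Cd79a of lymphocytes had 0 UMIs in all 106 cells.

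**Figure D4:**
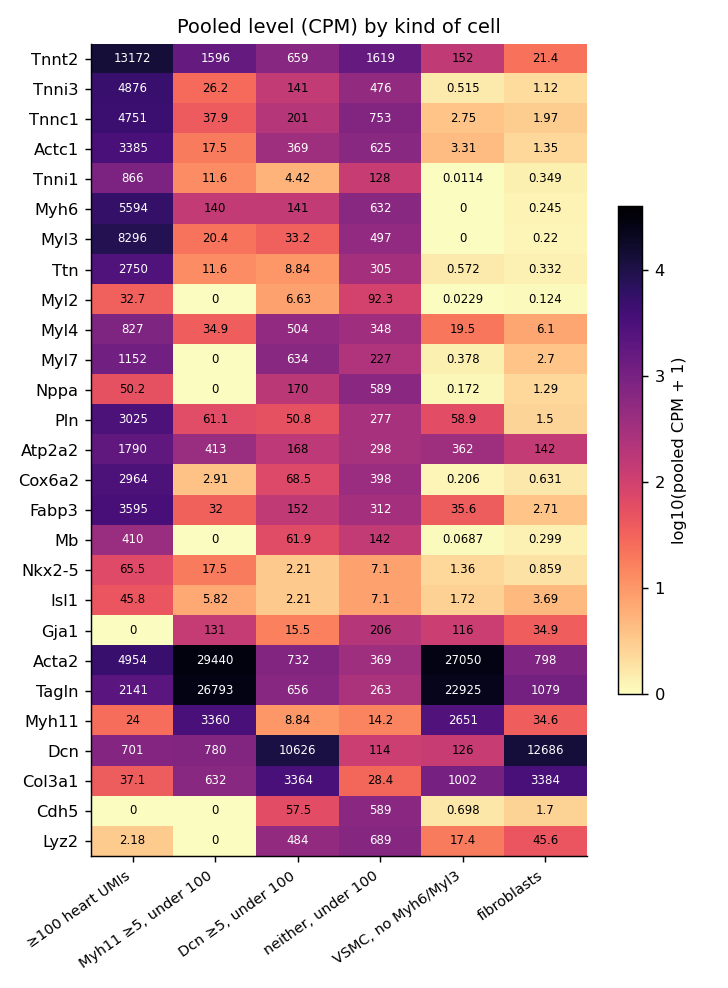
Pooled level in CPM (printed, with colour on a log10 scale after adding 1) of 27 genes in the 4 kinds of heart-transcript cell, in VSMCs without Myh6 or Myl3 UMIs and in fibroblasts. The troponins Tnni3 and Tnnc1 fall from 4876 and 4751 CPM in the heart-rich cells to 26.2 and 37.9 CPM in the Myh11 cells, where Acta2 stands at 29440 CPM.

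All 106 cells together were compared with the VSMCs within each of the 15 libraries as a description with no test, since the rule had chosen them on heart genes. Values are the mean over libraries of the log2 ratio of CPM after adding 5 CPM, which understates the change of low genes. Of 10513 genes with a mean of at least 5 CPM in either group, 444 (4.22%) had a mean above 1 and 1519 (14.4%) a mean below -1, and the median over all of them was -0.43. Without the 3 genes of the rule, 10 of 11 thick filament genes were above 1 (median 2.54), as were 10 of 17 thin filament and Z disc genes (median 1.91). Of 15 energy genes 12 were above 1 (median 2.84), as were 6 of 12 calcium genes (median 1.04), 3 of 8 channel genes (median 0.46) and 2 of 14 transcription factors (median -0.02). Beside the 3 genes of the rule, the highest were Tnni3 at 7.31 ± 2.83 (SD, n = 15 libraries) and Tnnc1 at 7.11 ± 1.99. Cox6a2 followed at 6.61 ± 3.25, Actc1 at 6.53 ± 2.40, Ttn at 5.84 ± 3.57, Cox8b at 5.25 ± 2.17 and Csrp3, a Z disc protein, at 5.06 ± 3.06. The next were Eef1a2 at 4.78, Tnni1 at 4.53, Eno3 at 4.36, Fabp3 at 4.33, Mb at 4.31, Trdn at 4.19, Cd36 at 3.97, Ckm at 3.96, Lmod2 at 3.85, Actn2 at 3.76, Nt5dc2 at 3.73, Cox7a1 at 3.69 and Sln at 3.67. These 20 genes were higher in the heart-transcript cells in 11 to 15 of the 15 libraries. The SDs were wide, and a library held 0 to 8 heart-rich cells.

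At the other end, Myh11 averaged -5.02 ± 3.74 and was lower in 13 of 15 libraries. The VSMCs were defined by their Myh11 counts, which sets this value in part and bears on the other VSMC genes below. The value also depends on how many of the 106 cells were of other kinds. In the Myh11 cells pooled Myh11 was 3360 CPM, against 2651 CPM in the VSMCs. Tpm2, a beta tropomyosin, averaged -4.92, Igfbp2 -4.88, Nov -4.77, Sost -4.45, Npnt -4.31, Fn1 -4.23, Cnn1 -4.22, Itga8 -4.20 and Mustn1 -4.20. All 8 VSMC markers lay below -1 (median -3.92). Of 19 listed genes of the TGF-beta response, 12 lay below -1 and 1 above 1, with a median of -1.41, and of 5 genes of proximal and distal VSMCs 4 lay below -1. Of 15 immediate early and stress genes, which tissue digestion is known to raise, 4 lay above 1 and 0 below -1 (median 0.73). Pooled Fos was 1537 CPM in the heart-rich cells, 1331 CPM in the Myh11 cells and 1498 CPM in the VSMCs, and Atf3 was 633, 160 and 272 CPM in the same order. Of the 8 endothelial markers 7 lay above 1 over all 106 cells, and their summed level was 3642 CPM in the remaining cells and 0 in the heart-rich cells.

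Just inside the rule stood 11 cells with a sum of exactly 4 UMIs, and just outside it 20 cells with UMIs of 2 of the genes and a sum of 3. A further 1126 cells held at least 4 UMIs of a single gene of the 3, which was Tnnt2 in 1123 of them, and 680 of those were VSMCs and 392 fibroblasts.

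The share of heart-transcript cells did not differ by genotype label beyond the spread between libraries. At 18 weeks it was 0.214% at the lowest, 0.275% at the median and 0.337% at the highest in the 5 Smad3+/+ libraries, with a mean of 0.272% ± 0.0451 (SD). In the 7 libraries labelled Smad3SmKO it ranged from 0% to 0.951% with a median of 0.225% and a mean of 0.370% ± 0.340. The Smad3+/+ values lay within the range of the other group. The difference of 0.0979 percentage points had p = 0.557 in a two-sided exact permutation test over 792 splits. Within batches it was 0.0108 points in batch 1, -0.281 in batch 2, 0.389 in batch 3 and -0.109 in batch 6, with a mean of 0.00251 points (exact permutation p = 0.944, smallest possible 0.0278). The library with 0 cells, Smad3SmKO 18 weeks replicate 1, had 1227 kept cells, and its exact 95% interval reached 0.300%. At 10 weeks the Smad3+/+ libraries held 0.0536% and 0.105%, and those labelled Smad3SmKO 0.209% and 0.0296%, and these 2 against 2 libraries were not tested.

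**Figure D5:**
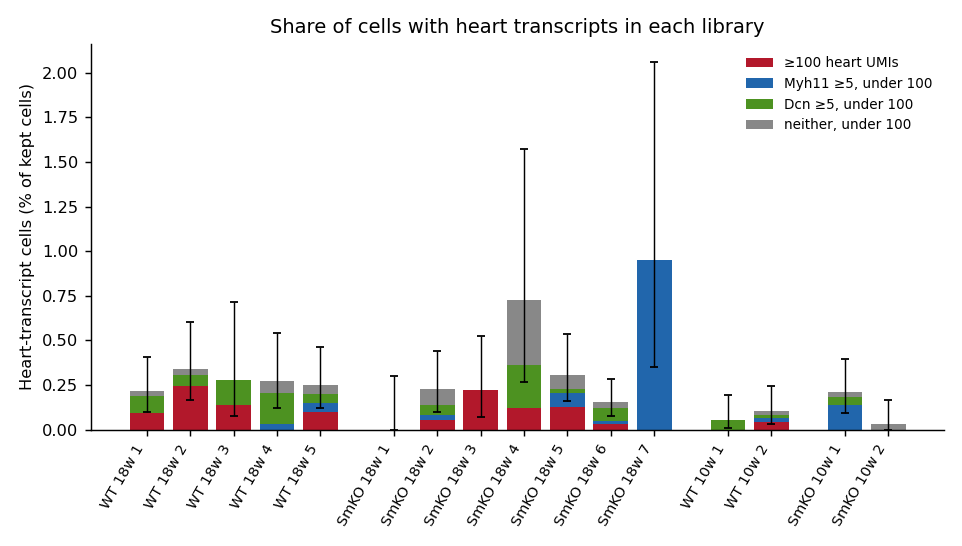
Heart-transcript cells as a percentage of kept cells (vertical) in each of the 16 libraries, divided by kind of cell, with 95% exact binomial intervals of the whole share. Smad3+/+ is written WT. The highest share, 0.951% in Smad3SmKO 18 weeks replicate 7, consists of Myh11 cells alone.

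By digestion time the mean share at 18 weeks was 0.287% ± 0.220 (SD, 7 libraries) after 30 min and 0.387% ± 0.320 (5 libraries) after 60 min (exact permutation p = 0.547, two-sided). Digestion time and batch cannot be told apart. By kind, only the heart-rich cells and the cells with at least 5 Myh11 UMIs were tested for digestion time. Neither was shown to differ once the number of settings was taken into account. Heart-rich cells alone made up 0.126% ± 0.0874 after 30 min and 0.0518% ± 0.0590 after 60 min (exact permutation p = 0.140). Heart-transcript cells among cells with at least 5 Myh11 UMIs numbered 1 of 869 in the 30 min libraries and 14 of 3280 in the 60 min libraries, found in 1 of 7 and in 5 of 5 libraries. The mean shares were 0.0668% and 0.508%, with an exact permutation p = 0.0126, or 0.126 after adjustment over the 10 settings in which the share by digestion time was tested. Without Smad3SmKO 18 weeks replicate 7 the p was 0.0758. The median depth of those Myh11 cells was 7530 to 14646 UMIs in the 30 min libraries and 9982 to 21959 in the 60 min libraries, and after thinning every cell to 2000 UMIs 1 and 3 cells met the rule (exact permutation p = 0.770). Replicate 7 was the deepest of these libraries.

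Genotype effects on single genes were tested on counts summed over the heart-transcript cells of each library, with edgeR's quasi-likelihood test. Because few libraries held 10 such cells, 12 libraries with at least 5 cells were used. At 18 weeks these were 4 Smad3+/+ and 6 Smad3SmKO libraries. At 10 weeks there was 1 of each, whose spread was assumed to be that of the other groups. Batch was a term of the fit, and Smad3SmKO 18 weeks replicates 5 and 7 were the only libraries of batch 5. These replicates therefore entered the spread but not the genotype ratio. At 18 weeks 0 of 3778 genes passed an adjusted p of 0.05 (0%), with 102 genes at an unadjusted p under 0.05, and DESeq2 called 8. At 10 weeks 0 genes passed (0%), with 162 at an unadjusted p under 0.05 and 5 called by DESeq2. For the difference between the times 0 passed (0%), with 129 at an unadjusted p under 0.05 and 4 called by DESeq2.

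The smallest p-values at 18 weeks were those of Spp1, Lyz2, C1qb and Igfbp5. Spp1, an osteopontin, had a log2 ratio of 9.49 ± 1.02 (SE, edgeR adjusted p = 0.138), with 0 UMIs in the Smad3+/+ cells and 256 UMIs in 4 Smad3SmKO libraries, so that the fitted ratio is no bound. Lyz2, a macrophage lysozyme, was at 5.57 ± 0.88 (edgeR adjusted p = 0.260) and C1qb, a complement subunit, at 6.35 ± 1.15 (edgeR adjusted p = 0.338). None of these passed. Cells with at least 5 leukocyte-marker UMIs numbered 2 of 42 Smad3+/+ and 4 of 47 Smad3SmKO cells at 18 weeks. Smad3+/+ replicate 3, which had too few heart-transcript cells for the fit, held 202 of the 204 Lyz2 UMIs and 95 of the 96 C1qb UMIs of its group, against 92 and 91 UMIs in the Smad3SmKO cells. On the other side, Igfbp5, a binding protein of insulin-like growth factors, was at -2.45 ± 0.47 (edgeR adjusted p = 0.347), with 153 to 1024 CPM in the Smad3+/+ libraries and 7.68 to 149 CPM in the others, and Fgl2 and Rab9 followed at -1.42 and -1.36 (adjusted p = 1 for both). Dcn was at -1.32 ± 1.28 and Myh11 at 1.51 ± 1.49, and neither passed (edgeR adjusted p = 1). Summed over libraries at 18 weeks, 3 of 42 Smad3+/+ cells were Myh11 cells and 15 were Dcn cells, and of 47 Smad3SmKO cells 11 and 10 were, or 5 and 10 of 41 without replicate 7, which held 6 of the Myh11 cells. This mixture was not tested between labels, and its part in these values was not tested.

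Of 19 listed TGF-beta response genes, 16 could be tested at 18 weeks and 0 passed (median log2 ratio -0.12, against -0.06 over all genes tested). Ctgf, a matrix-associated growth factor, was at -0.33 ± 1.11, Pmepa1, a feedback inhibitor of the pathway, at -0.53 ± 0.59 and Col1a1 at -0.81 ± 0.95 (SE). The rule genes Myh6, Myl3 and Tnnt2 were at -0.60 ± 1.36, -0.53 ± 1.49 and -0.26 ± 0.84. The 1 against 1 libraries of 10 weeks gave Srrm1, Usp14 and Ccl7 the smallest p among positive and Pgk1, Igfbp5 and Smad4 among negative ratios, with an edgeR adjusted p = 0.899 for each. For the difference between times they were Pgk1, Mtfr1l and Bccip on the positive side and Usp14, Srrm1 and Atf1 on the negative side (edgeR adjusted p = 0.976).

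The GFP tracer, which recombination by the Myh11 Cre switches on, was not used by the rule. In the 7 libraries with GFP UMIs, the 45 heart-transcript cells held 11 GFP UMIs, in 8 cells, which is 19.3 CPM (95% exact Poisson interval 9.65 to 34.6). The compared VSMCs of these libraries stood at 20.5 CPM and the fibroblasts at 1.22 CPM. Of the 11 UMIs 5 came from Smad3SmKO 10 weeks replicate 1, labelled without the tracer, and without it the value was 11.8 CPM (4.32 to 25.6) against 20.9 CPM in the VSMCs. By kind, the 17 Myh11 cells held 9 of the GFP UMIs in 7 cells, at 32.1 CPM (14.7 to 60.9), or 17.0 CPM (4.62 to 43.4) without that library, and 1 Dcn cell held the other two. The 9 heart-rich cells in these libraries held 0 GFP UMIs in 105515 UMIs, which allows up to 28.4 CPM by 3 counts and so does not separate them from the VSMC level. The share of cells with a GFP UMI was 15.3% in the VSMCs, 0.691% in the fibroblasts and 41.2% in the Myh11 cells, whose cells differ in depth.

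Per library, GFP in the heart-transcript cells was 84.4 CPM in Smad3SmKO 10 weeks replicate 1, 20.4 CPM and 18.3 CPM in Smad3SmKO 18 weeks replicates 5 and 7, and 0 in the other 4. Among these 4, a level of 3 counts was 367 and 81.4 CPM in Smad3+/+ 10 weeks replicates 1 and 2. It was 966 CPM in Smad3SmKO 10 weeks replicate 2 and 19.9 CPM in Smad3SmKO 18 weeks replicate 6. Each lies above the VSMC level of its library, so 0 UMIs there do not separate these cells from the VSMCs. The mean log2 ratio after adding 1 CPM was 0.81 ± 2.76 (SD) against fibroblasts and -2.27 ± 3.02 against VSMCs, higher in 3 of 7 libraries in each case (exact sign-flip permutation p = 0.484 and 0.125, two-sided, smallest possible 0.0156). Without the 2 libraries that were labelled without the tracer the values were 0.30 (exact permutation p = 0.813) and -2.72 (exact permutation p = 0.250). The added 1 CPM sets the ratios of the libraries with 0 UMIs in part, so these means do not decide whether GFP differed. Smad3 had 11 UMIs in all heart-transcript cells at 18 weeks, 7 in Smad3+/+ at a pooled 11.4 CPM and 4 in Smad3SmKO cells at 5.94 CPM, and 0 at 10 weeks, which is too few for a comparison.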

How the data were processed

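The authors deposited UMI counts per gene and barcode for each library, made with Cell Ranger on mm10 with GFP added (version 6 per the submitters' processing notes, 4.0.0 per the file headers), not normalized, and used Seurat 4. Kept cells had over 600 and under 6000 genes, over 2000 and under 50000 UMIs, and under 25% mitochondrial UMIs, the limits of the study. Doublets were not removed; Scrublet's automatic threshold marked 0.379% of kept cells and did not work, so the highest scores at 0.8% per 1000 cells (3.13%) were removed as an alternative. Shares were compared over libraries by exact permutation, and GFP by exact sign flips. Gene tests used edgeR 4.0.16 with TMM scaling, batch as a term and filterByExpr, with Benjamini-Hochberg adjustment, and DESeq2 1.42.0 as an alternative. At least 10 cells per library had been planned, which 4 libraries reached, leaving no residual degrees of freedom, so at least 5 were required after the counts had been seen. The fit was also run on simulated data with large changes only and the same spread for every gene. That run does not show what the fit can find in the real counts. Named genes were those of the rule, Myh11, Dcn, GFP and Smad3, up to 4 of each list with the highest level and listed genes with 0 UMIs, the 20 highest and 10 lowest against VSMCs with at least 20 CPM, and those with the smallest genotype p. Other genes were named after their values were seen. The members and lists were chosen with earlier results of these data known. Ccn2 was read under its older name Ctgf. Cells were prepared per mouse, per the methods of the study. Some listed genes are not reported here.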

Additional observations from a re-analysis of the deposited data

Results flagged for a closer look

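In the 7 libraries labelled Smad3SmKO at 18 weeks, replicate 7 stood apart by Dixon's criterion, which chance meets in about 1 of 20 groups. The share was that of heart-transcript cells among cells with at least 5 Myh11 UMIs, and several of the 7 libraries had 0. The criterion was applied to both 18 week groups in several settings without adjustment, and only this case met it. That rate is therefore a rough guide only. In replicate 7 the share was 1.32%, or 6 of 454 cells. Its Myh11 cells were also the deepest, at a median of 21959 UMIs, and its fibroblasts held 230 CPM of Tnnt2, the highest of the 16 libraries. After thinning to 2000 UMIs 0 of its Myh11 cells met the rule.

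Outside the limits on cells, 35 of 15491 barcodes met the rule on the 3 heart genes. Of these, 29 had too few genes or UMIs, 1 had too many and 9 had too much mitochondrial RNA, and a barcode can fall under several of these. Smad3SmKO 10 weeks replicate 2 held 9 of the 35, although it had only 1 heart-transcript cell within the limits, and 6 of its 9 were above the mitochondrial limit.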

How the results depend on the processing

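The share difference by genotype label at 18 weeks (0.0979 points) reversed to -0.0363 with at least 100 UMIs and to -0.00831 after thinning to 2000 UMIs, and ranged from 0.00103 to 0.160 points when each library was left out. By digestion time (0.100 points) it reversed to -0.100 with Myl3 required, -0.0743 with at least 100 UMIs and -0.0871 after thinning, and became 0.442 (exact permutation p = 0.0126) over cells with at least 5 Myh11 UMIs, with a range of -0.0404 to 0.174 points when each library was left out, the negative value being without Smad3SmKO 18 weeks replicate 7. GFP against fibroblasts (0.81) reversed to -0.32 in cells under 5 Myh11 UMIs and ranged from 0.02 to 1.18, and against VSMCs from -3.01 to -1.79. These GFP ratios carry the limit given above for libraries with 0 GFP UMIs. The causes were not tested. The gene counts of 0 became 8, 5 and 4 by DESeq2 (18 weeks, 10 weeks and their difference) and 40 and 4 at 18 and 10 weeks with no filter on low counts, and were 0 without each library in turn. The limits of 100 UMIs, Myl3 required, at least 5 cells per library, the thinned Myh11 share, lists without the rule genes and pooled values without single libraries were chosen after seeing the data. Fits on cells with at least 5 Myh11 or at least 100 heart UMIs alone, or with at least 10 or 20 cells per library, could not be made. Few cells per library limit all of these comparisons. Replicate numbers do not pair the samples, and the blocked comparison was that within batches (mean 0.00251 points).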
